A study of Mus musculus with 6 samples.

Results

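A set of 83 genes was more abundant in brown preadipocytes directly after FGF8 treatment than in untreated cells, and less abundant in adipocytes differentiated from the treated cells than in adipocytes differentiated from the untreated ones. The set was selected on these same values. Each library was scaled by its median-of-ratios size factor, which corrects for sequencing depth. A gene needed an average of 20 or more normalized counts over the 6 libraries, and it entered the set if its log2((FGF8 + 1)/(untreated + 1)) was at least 1 at D0 and at most -1 at both D3 and D7. Of 26264 genes listed, 13256 passed the filter on the mean and 83 of these met all 3 conditions, which is 0.626% of the genes that passed. All 83 genes therefore passed the filter and turn direction by the choice itself, so their fold changes describe them and are not tested.

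The libraries were bulk mRNA sequencing of wild-type (Bl6N) stromal vascular fraction cells from mouse interscapular brown fat that had been immortalized with SV40 large T antigen, which all 6 libraries carry. Cells were treated with 5.5 nM FGF8 for 48 h or left untreated (the methods name a vehicle), and were harvested as preadipocytes (D0) or after differentiation (D3 and D7). The paper's results count days after the end of FGF8 and place harvests at day 3 and day 9. These followed 2 days of induction and either 1 or 7 days of differentiation medium. The label D3 was taken here as that day 3 and D7 as that day 9, a match the paper does not state. The paper's methods give 6 days of differentiation. Each of the 6 combinations is 1 library, so differences between libraries were not tested and carry no p-value. The libraries held between 16403254 and 38551551 counts. The growth protocol in the labels describes primary white cells, whereas titles and sample characteristics name immortalized brown cells. Summed stromal markers were present in every library, while the adipocyte markers summed to 731.5 (untreated) and 521.1 (FGF8) normalized counts at D0 and to between 243041 and 470913 at D3 and D7.

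FGF8 is a secreted growth factor that binds FGF receptors on the cell surface. The receptors activate the Ras and ERK kinase cascade, which drives transcription factors of the ETS and AP-1 families, and these switch on feedback inhibitors, secreted growth factors and genes of cell shape and movement. FGFs are known to keep preadipocytes proliferating. During adipogenesis, preadipocytes lose much of their stromal, matrix and cytoskeletal expression and acquire lipid storage and, in brown fat, heat production by Ucp1.

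The set spans the cell from its secreted factors to its nucleus. By roles assigned after the members were known, 9 encode secreted ligands and factors and 16 receptors and surface proteins. A group of 11 holds matrix proteins, proteases and inhibitors, with the phosphatase gene Acpp and the hyaluronan synthase gene Has1 placed there too. A further 16 encode intracellular signaling proteins, 7 transcriptional regulators, 7 cytoskeletal proteins and 11 enzymes and transporters of metabolism. The remaining 6 have no role that was sure. The members came from 20 chromosomes, and 81 are protein coding in GENCODE M39 (GRCm39). Only 3 pairs lie within 1 Mb of each other, namely Ass1 and Lcn2, Add2 and Tgfa, and Clec1a and Olr1. The median exon length was 6379 bases, against 6303 bases for all genes that passed.

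The median log2 fold change of FGF8 over untreated in the 83 members was 1.62 at D0 (range 1.01 to 7.13), -1.63 at D3 (range -4.98 to -1.003) and -1.75 at D7 (range -4.47 to -1.04). Over all 13256 genes the medians were 0.043, 0.073 and 0.074. For comparison, 7.61% of all genes were at least 2-fold higher at D0, 12.9% at least 2-fold lower at D3 and 9.75% at least 2-fold lower at D7. In the other direction, 11.4% were lower at D0, 4.11% higher at D3 and 1.09% higher at D7. A log2 fold change here is the difference of log2(normalized count + 1) and understates the change of low genes. Some ends of these ranges rest on almost no counts and depend on the pseudocount: 7.13 is Adcy8 and -4.98 is Bmpr1b, each with 0 counts in 1 library, and -1.003 is Rasgrf1 with 3 and 2 counts. The members with 0 counts in 1 library and over 3 counts in the other numbered 1 at D0, 1 at D3 and 4 at D7, and with that 0 set to a floor of 3 counts the medians were 1.62, -1.63 and -1.72.

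Counting error alone was large for part of the set. The 95% Clopper-Pearson (exact binomial) interval for a ratio of 2 counts excluded equality for 80 members at D0, 72 at D3, 72 at D7 and 61 on all 3 days. Such an interval takes in counting error alone. In the FGF8 library 10 members had at most 3 counts at D3 and 24 at D7. At D3 both libraries were at or under the floor of 3 counts for Pcdhac2, Rasgrf1, Spint1 and Ttc9, and at D7 for Adcy8 and Il18rap, so for these genes on those days the log2 value of the selection says nothing beyond the pseudocount, and this depth cannot show a difference.

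**Figure D1:**
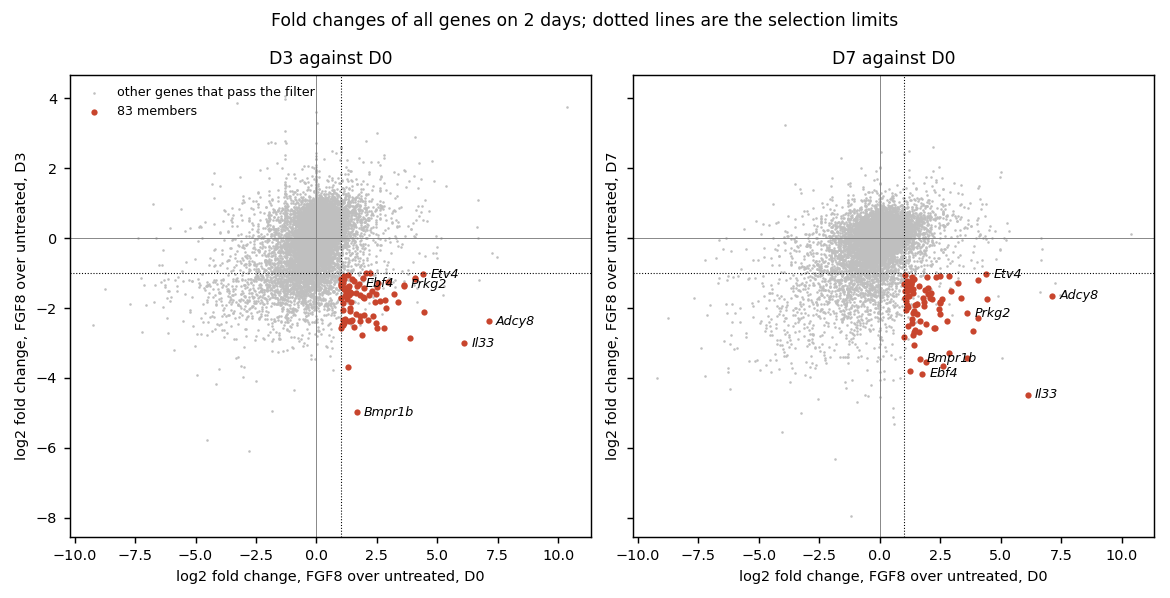
Log2 fold change of FGF8 over untreated at D0 (x axis) against D3 (left) and D7 (right) for each of the 13256 genes that passed the filter, 1 point per gene, with the 83 members in red and the selection limits dotted. The members fill the lower right corner by their selection; Il33 and Adcy8 lie farthest to the right among them, at 6.12 and 7.13, the latter against 0 untreated counts.

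Genes higher at D0 had no single later course. Of the 1009 genes at least 2-fold higher at D0, 83 (8.23%) were at least 2-fold lower on both later days, 24 (2.38%) at least 2-fold higher on both, and their median log2 fold change was 0.33 at D3 and 0.19 at D7. Among the 1505 genes at least 2-fold lower at D0, 502 (33.4%) were lower on both later days and 9 (0.598%) higher on both. Among the 10742 within 2-fold at D0, 419 (3.90%) were lower on both and 18 (0.168%) higher on both. Together these groups make up all 13256 genes. For genes higher at D0, the share lower on both days thus lay between the shares of the other groups. The share higher on both days lay above those of the other groups. By single day, 15.2% of the 1009 genes were at least 2-fold lower at D3 and 12.1% at D7. Of all genes, 12.9% and 9.75% were, so the single-day shares lie near that background. These shares come from 1 library per condition and were not tested. The reverse course, lower at D0 and higher later, was met by 9 genes, and 6 of those had at most 3 counts in both libraries of D0.

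Across the 6 libraries, most members were highest directly after FGF8. The FGF8 library of D0 held the highest value of 72 members, the untreated library of D3 that of 8 and the untreated library of D7 that of 3. The rule requires FGF8 above untreated at D0 and below it later. No member could therefore be highest in the untreated library of D0 or the FGF8 library of D3 or D7. In the order given, the members' shares were 86.7%, 9.64% and 3.61%. Over all genes that passed, which could be highest in any library, the shares were 26.2%, 9.31% and 6.26%. The rule itself tilts the members' shares.

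In the FGF8 libraries 77 members (92.8%) were at least 2-fold lower at D3 than at D0, where 21.2% of all genes were. At D7 it was again 77 (92.8%), against 21.9% of all genes. At D3, 2 members were at least 2-fold higher than at D0 (Cyp2f2 and Lcn2) and at D7 only Lcn2 was, against 25.2% and 26.8% of all genes. The median log2 change from D0 was -4.41 at D3 and -5.26 at D7. The selection tilts these counts and medians, since members were chosen for high FGF8 values at D0 and low ones later, relative to untreated. They describe the set and were not tested.

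The untreated libraries showed a more mixed course. From D0 to D3, 36 members (43.4%) were lower by 2-fold or more and 17 (20.5%) higher, against 14.7% and 20.6% of all genes. From D0 to D7, 44 (53.0%) were lower and 14 (16.9%) higher, against 18.8% and 24.2% of all genes. The share that was higher thus lay near that of all genes at D3 and below it at D7. Untreated values enter every condition of the rule. The selection therefore shapes the shares, medians and counts given here, which were not tested. The median log2 change was -0.60 at D3 and -1.33 at D7. Thus, of the 77 members lower at D7 than at D0 after FGF8, 44 were also lower in untreated cells, 25 lay within 2-fold and 8 were higher in untreated cells.

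**Figure D2:**
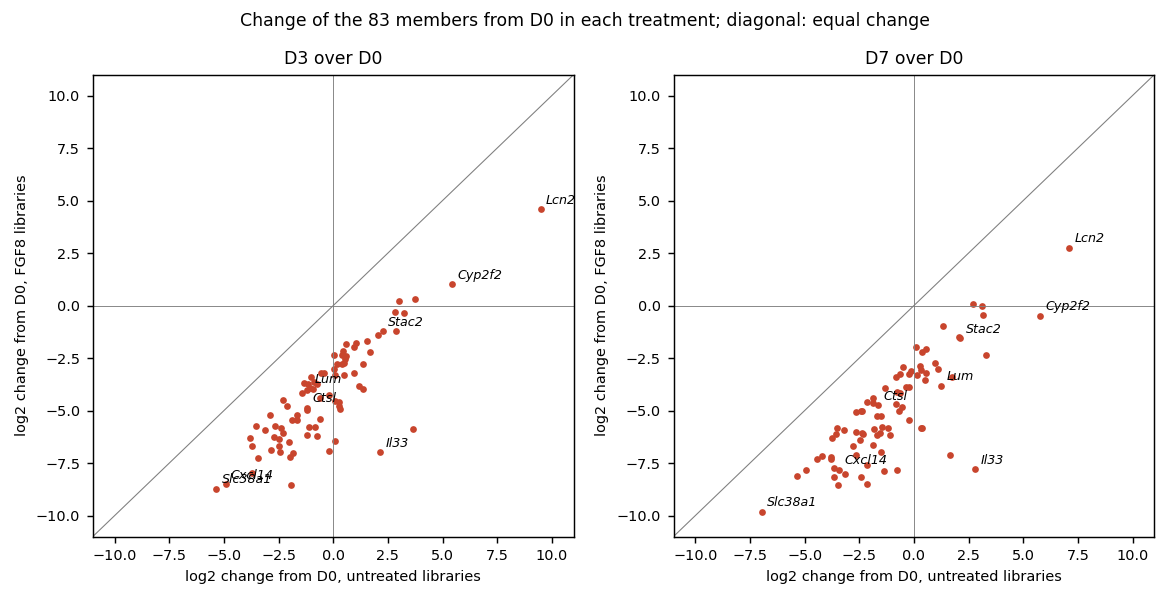
Log2 change from D0 to D3 (left) and to D7 (right) of the 83 members in the untreated libraries (x axis) and the FGF8 libraries (y axis), 1 point per gene, with equal change on the diagonal. Every point lies below the diagonal because of the selection; Il33 was higher than at D0 in untreated cells (2.13 and 2.79) and lower after FGF8 (-6.99 and -7.80), and Lcn2 was higher in both.

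The secreted factors held the member with the widest swing among abundant genes. Il33 (chr19:29902483-29938933, plus strand, GRCm39) encodes interleukin-33, a nuclear cytokine of the interleukin-1 family that signals tissue damage. It had 88.1, 389.5 and 616.8 normalized counts in the untreated libraries of D0, D3 and D7, and 6194, 47.7 and 26.8 in the FGF8 libraries. Untreated cells thus had more Il33 at the later days and FGF8 cells far less. The log2 fold changes were 6.12 (95% counting interval 5.77 to 6.53), -3.00 (-3.43 to -2.65) and -4.47 (-5.07 to -4.02).

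Ereg and Tgfa encode ligands of the EGF receptor. Ereg (epiregulin, chr5:91222157-91241505, plus strand) had 54.3, 47.1 and 20.6 normalized counts in the untreated libraries and 800.1, 5.62 and 2.44 in the FGF8 libraries, 14.7-fold higher at D0 and 8.39-fold and 8.44-fold lower at D3 and D7. Tgfa had few counts at D0 (7 untreated, 20 FGF8). Its normalized counts were 10.3, 90.4 and 71.7 in untreated and 25.6, 30.2 and 26.8 in FGF8 cells, so that it was nearly level across the FGF8 libraries and higher at the later days in the untreated ones. Areg, another EGF receptor ligand that was not selected, was higher at D0 as well (5.88 untreated, 722.0 FGF8) but had at most 6 counts in any library of D3 and D7.

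Bdnf encodes a neurotrophin, a ligand of the TrkB receptor. It had 318.7, 101.8 and 45.4 normalized counts in the untreated and 1431, 32.3 and 13.0 in the FGF8 libraries, so both treatments ended below their D0 level. Inhba, the subunit of activin A, had 956.2, 301.6 and 103.6 normalized counts untreated and 1965, 52.6 and 30.9 after FGF8. Both ligands were already present in untreated preadipocytes and lower at each later harvest.

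Cxcl14, a chemokine, had 301.1, 8.91 and 26.97 normalized counts untreated and 1136, 2.11 and 4.07 after FGF8, and its interval at D3 included equality. Fetub, a secreted protease inhibitor, had 176.3, 30.5 and 109.3 untreated and 1047, 11.9 and 31.7 after FGF8. Lcn2 encodes lipocalin 2, an iron-sequestering acute phase protein, and owed its place to 1 against 10 counts at D0 (interval of the log2 fold change 0.31 to 8.56). Its normalized counts were 1770 and 334.3 in the untreated libraries of D3 and D7 and 329.2 and 92.7 in the FGF8 libraries, so its high values came during differentiation.

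The receptors and surface proteins ranged from abundant membrane proteins to cadherins with few counts. Bmpr1b, a type I receptor for bone morphogenetic proteins (chr3:141542897-141875323, minus strand), had 119.0, 30.5 and 9.94 normalized counts untreated, and 377.7 at D0 and 0 counts at D3 and D7 after FGF8. Taking the floor of 3 counts per library, it was at least 14.5-fold lower at D3 and at least 4.07-fold lower at D7. Cd38, an NAD-consuming surface enzyme, had 63.2, 76.4 and 79.5 untreated and 466.0, 18.3 and 7.32 after FGF8. Cd38 was close to level in untreated cells, and Bmpr1b was lower at each later day.

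Pdpn encodes podoplanin, a mucin-type glycoprotein of stromal cells. It had 1423, 941.8 and 403.9 normalized counts untreated and 3942, 183.9 and 65.0 after FGF8. Tm4sf1, a surface protein with several membrane spans, had 2941, 338.5 and 133.4 untreated and 6804, 111.6 and 41.5 after FGF8. Calcrl, the receptor component for adrenomedullin and CGRP, was highest in the untreated library of D3, at 1157, against 325.0 in the FGF8 library of that day.

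Among the other receptors and surface proteins, F2rl1, Clec1a, Il18rap, Dchs2 and Pcdhac2 were nearly limited to the FGF8 library of D0. They passed the filter on the mean only through that library. A gene this low elsewhere could not have entered the set otherwise, so the selection fixes this pattern. F2rl1 encodes protease-activated receptor 2, and had 147.2 normalized counts there and between 0.70 and 7.81 in the other 5 libraries. Clec1a, a C-type lectin, had 405.8 there and at most 32.3 elsewhere, and Il18rap, the accessory chain of the interleukin-18 receptor, 282.9 and at most 29.4. Dchs2 and Pcdhac2, both of the cadherin superfamily, had 113.9 and 130.6 there and at most 11.8 elsewhere. The counting intervals of both included equality at D3 and at D7. Exons of Pcdhac2 are shared with other transcripts of the protocadherin alpha cluster, so its counts are uncertain. The chemerin receptor Cmklr1, the oxidized LDL receptor Olr1, the sortilin family receptor Sorcs2, the sodium pump regulator Fxyd5 and Tnfrsf26 were also members. Their log2 fold changes lay between 1.33 and 2.32 at D0, and the interval of Sorcs2 at D7 included equality.

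**Figure D3:**
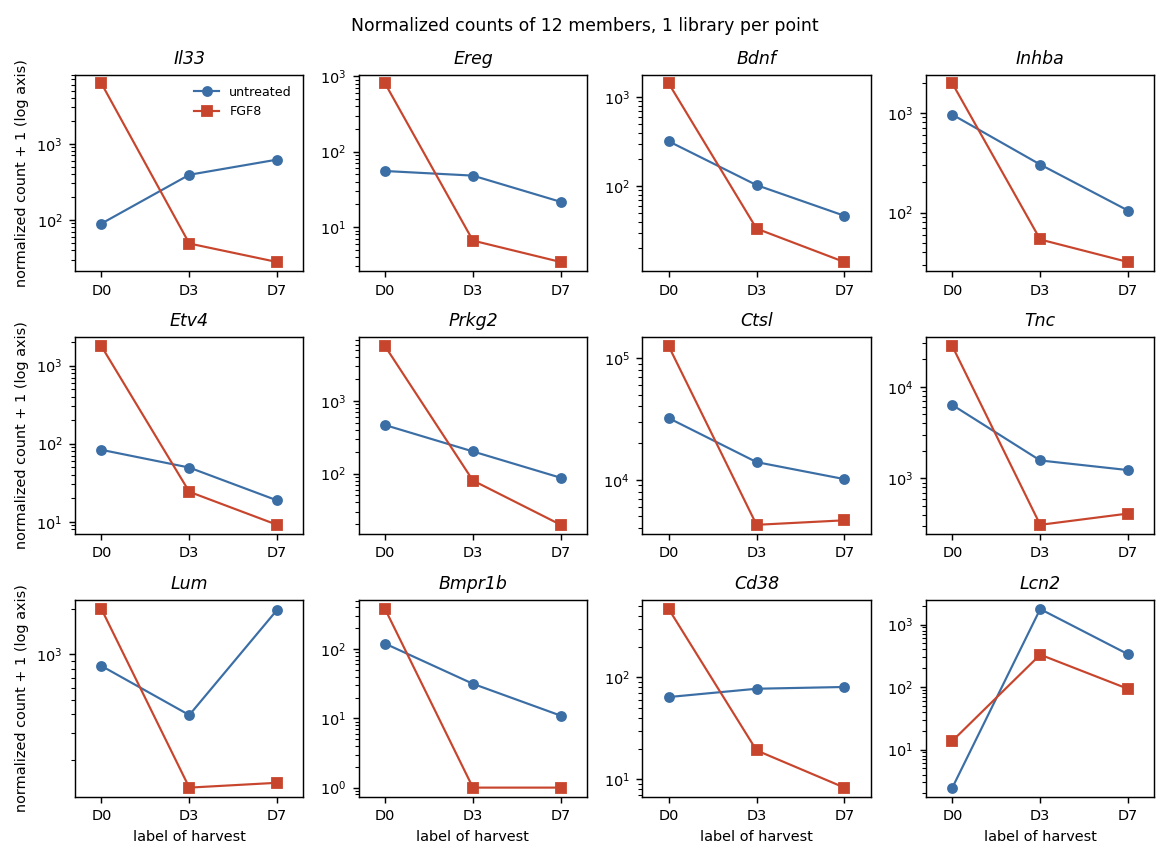
Normalized counts plus 1 (log axis, own range per panel) of 12 members at D0, D3 and D7 in untreated (blue circles) and FGF8 (red squares) cells, 1 library per point and no error bars. The curves cross between D0 and D3 in every panel, as selected; Il33 is higher later in untreated cells, Ctsl and Tnc are lower later in both treatments, and Lcn2 peaks at D3 in both.

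The matrix and protease group held the most abundant members. Ctsl (chr13:64507151-64518704, minus strand) encodes cathepsin L, a cysteine protease of lysosomes that can also be secreted. It had 32090, 13971 and 10129 normalized counts untreated and 124832, 4270 and 4650 after FGF8. Per kilobase of exon it was also the highest member in the FGF8 library of D0, at 18707 normalized counts per kb, followed by Tnc at 3479. Its log2 fold changes were 1.96, -1.71 and -1.12, with counting intervals of 1.94 to 1.98, -1.76 to -1.66 and -1.17 to -1.08.

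Tnc encodes tenascin C, a matrix glycoprotein of growing and injured tissue (chr4:63878014-63965443, minus strand). It had 6329, 1569 and 1232 normalized counts untreated and 27735, 310.3 and 412.2 after FGF8. Adam19, a membrane metalloprotease that sheds growth factors, had 2472, 2510 and 1396 untreated and 6200, 1199 and 591.8 after FGF8. Adam19 hardly differed between D0 and D3 in untreated cells, whereas Tnc was lower.

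Lum encodes lumican, a small leucine-rich proteoglycan that binds collagen fibrils (chr10:97400990-97408577, plus strand). It had 835.8, 394.5 and 1966 normalized counts untreated and 1991, 129.9 and 139.8 after FGF8. The FGF8 value at D0 was close to the untreated value at D7, and at D7 the FGF8 library was 14.1-fold lower. Has1, a synthase of hyaluronan, had 44.1, 62.4 and 14.2 untreated and 120.3, 11.2 and 0.81 (1 count) after FGF8. Adamtsl3, a matrix protein related to the ADAMTS proteases, had 268.8, 234.2 and 96.5 untreated and 1499, 77.2 and 26.0 after FGF8.

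Also in this group were the phosphatase gene Acpp (annotated as Acp3), which had 659.3 normalized counts in the FGF8 library of D0 and at most 38.2 in any other, the serine protease inhibitor gene Spint1 and the carboxypeptidase gene Cpm. Acpp too passed the filter on the mean only through the FGF8 library of D0, and at D3 its interval included equality.

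Of the matrix list as a whole, most genes went the other way at D0. Among 84 measured matrix genes 49 were lower by 2-fold or more and 6 higher at D0, 49 lower and 6 higher at D3, and 43 lower and 0 higher at D7, and Tnc, Lum and Has1 were the members of the set. Among 46 matrix proteases and inhibitors 4 were higher and 24 lower at D0, 1 and 34 at D3, and 1 and 31 at D7. The median log2 fold changes of the matrix list were -1.39, -1.23 and -1.13. For all genes the shares higher and lower were 7.61% and 11.4% at D0, 4.11% and 12.9% at D3, and 1.09% and 9.75% at D7. These lists were chosen with earlier results of these data known, and were not tested.

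Intracellular signaling members included enzymes of cyclic nucleotide and small GTPase pathways. Prkg2 encodes the type II cGMP-dependent protein kinase (chr5:99076863-99185470, minus strand). It had 465.6, 201.1 and 86.6 normalized counts untreated and 5688, 79.3 and 18.7 after FGF8. Adcy8, a calcium-stimulated adenylyl cyclase (chr15:64568933-64794987, minus strand), had 0 counts in the untreated library of D0 and 109 in the FGF8 library, at least 31.7-fold higher after taking the floor of 3 counts. At D3 it had 9 counts untreated and 2 after FGF8 (ratio 8.16-fold lower, interval of the log2 ratio -6.28 to -0.76), and at D7 3 and 0 counts.

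Pak3, a kinase activated by Rac and Cdc42, had 1353, 255.8 and 117.1 normalized counts untreated and 2910, 49.8 and 49.6 after FGF8. It was lower later in each treatment. Rcan2, a regulator of the phosphatase calcineurin, had 185.1, 420.0 and 157.6 untreated and 464.7, 31.6 and 30.9 after FGF8, which gave a log2 fold change of -3.69 (interval -4.22 to -3.28) at D3.

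Rgs17 and Stac2 differed from these in that their highest value was in the untreated library of D3. Rgs17, a brake on G protein signaling, had 146.9, 617.3 and 314.5 normalized counts untreated and 381.5, 143.9 and 45.5 after FGF8. Stac2, an adaptor of voltage-gated calcium channels, had 142.5, 692.4 and 619.0 untreated and 320.1, 137.6 and 108.1 after FGF8. Other members of the group were Nkd2, an inhibitor of WNT signaling, the ribosomal S6 kinase gene Rps6ka6, the Ras exchange factor gene Rasgrf1 and Pmaip1, which encodes the cell death protein Noxa.

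Transcriptional regulators made up 7 members. Etv4 (chr11:101660568-101676197, minus strand) encodes an ETS factor that is a textbook target of FGF and ERK signaling. It had 82.3, 48.4 and 17.8 normalized counts untreated and 1763, 23.2 and 8.13 after FGF8. Its log2 fold change was 4.41 (interval 4.04 to 4.83) at D0 but -1.03 (-1.78 to -0.35) and -1.04 (-2.35 to -0.02) later, so it lay near the limit on both later days. Of 21 measured genes of the FGF and ERK feedback list, 12 were at least 2-fold higher and 1 lower at D0, 2 higher and 3 lower at D3, and 0 higher and 4 lower at D7, and Etv4 was the 1 member of the set. The list medians were 1.31, 0.22 and -0.16. Of all genes 7.61% were higher and 11.4% lower at D0, 4.11% and 12.9% at D3, and 1.09% and 9.75% at D7.

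Runx1, a runt family factor, had 298.2, 204.9 and 190.9 normalized counts untreated and 729.7, 77.2 and 76.4 after FGF8. Ankrd1, a nuclear and sarcomeric cofactor, had 687.4, 184.5 and 49.7 untreated and 1509, 33.7 and 17.9 after FGF8. Ebf4, of the early B cell factor family, was highest in the untreated library of D7, at 109.3, against 6.50 in the FGF8 library (log2 fold change -3.88, interval -5.31 to -3.06). Klf12, Hivep3 and Aff2 completed the group.

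The cytoskeletal members were led by Rai14, an actin-associated protein, with 2778, 1386 and 517.5 normalized counts untreated and 5972, 570.7 and 185.4 after FGF8. Nes, the intermediate filament nestin of progenitor cells, had 330.5, 128.5 and 63.2 untreated and 738.7, 56.2 and 21.9 after FGF8. Tubb3, a beta tubulin best known from neurons, peaked in untreated cells at D3 (375.5, against 49.9 at D0 and 99.4 at D7), and had 148.5, 63.2 and 21.1 after FGF8. The erythroid membrane skeleton genes Ank1 and Add2 also belonged here.

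The metabolic members were enzymes of separate pathways. Ass1, argininosuccinate synthase of arginine synthesis, had 437.7, 1128 and 136.3 normalized counts untreated and 1723, 246.4 and 43.9 after FGF8. The pseudogene Gm5424, also counted among the 83, matches Ass1 at 99.5% of 1240 aligned bases, so that the 2 are not independent entries. Man1a, a mannosidase that trims N-linked glycans, had 993.0, 2059 and 1202 untreated and 2235, 654.2 and 305.7 after FGF8. Gfpt2, an enzyme of hexosamine synthesis, had 790.2, 896.0 and 668.7 untreated and 1716, 247.8 and 175.6 after FGF8. Slc38a1, a glutamine transporter, was mostly a transcript of preadipocytes. It went from 1188 to 28.0 and 8.52 untreated and from 3090 to 6.32 and 2.44 after FGF8. Its interval at D7 (12 against 3 counts) included equality.

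Ch25h makes 25-hydroxycholesterol, an antiviral sterol. It had 19.1, 50.9 and 66.7 normalized counts untreated and 137.0, 7.72 and 12.2 after FGF8. Ch25h, Il33, Ereg, Cd38 and Inava were the 5 members at least 4-fold different on all 3 days in the direction of the set. Cyp2f2 (1 against 11 counts at D0), Etnk2 (2 against 10) and B3gnt3 (5 against 13) were higher at D0 on few counts, and the intervals of Etnk2 and B3gnt3 included equality there. Their values in untreated cells of D3 and D7 lay between 34.1 and 133.4.

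**Figure D4:**
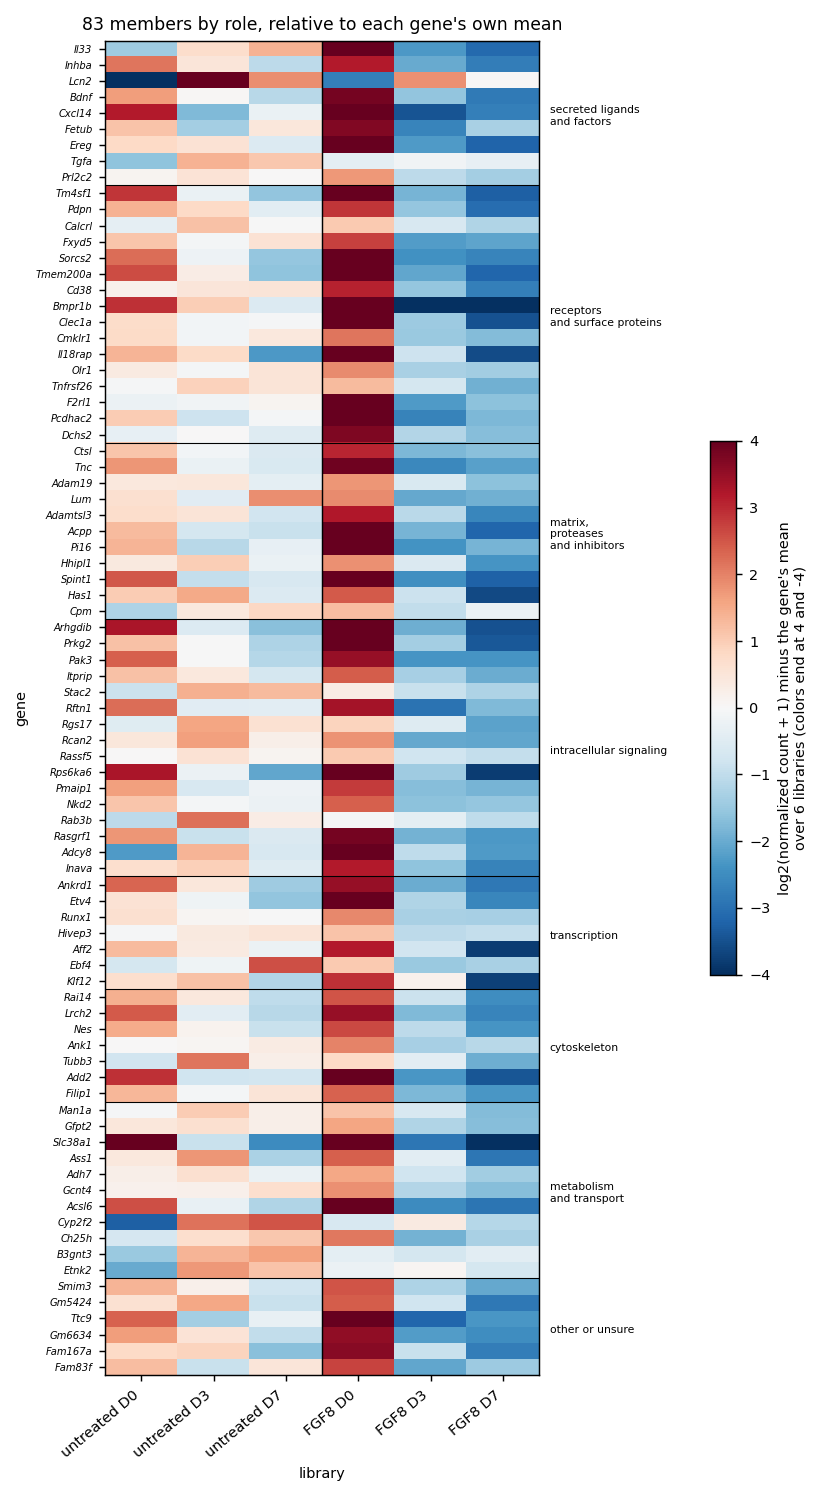
Log2(normalized count + 1) of the 83 members in each library minus the gene's own mean over the 6 libraries (color, cut off at 4 and -4), with genes in rows grouped by role and 1 library per column. The FGF8 D0 column is the darkest red for 72 members and the FGF8 D3 and D7 columns are blue for most; Lcn2, Cyp2f2, Tgfa, Rab3b, Etnk2, B3gnt3 and Tubb3 stand out by red in the untreated D3 column.

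The growth factor and cytokine lists gave the setting of the secreted members. Of 40 measured growth factor ligands 16 were at least 2-fold higher and 11 lower at D0, 3 and 17 at D3, and 0 and 18 at D7, and Ereg, Tgfa and Bdnf were members of the set. Of 28 measured cytokines and chemokines 4 were higher and 12 lower at D0, 0 and 20 at D3, and 0 and 17 at D7, with Il33 and Cxcl14 as members. Il6, a cytokine of the list that was not selected, was lower on each day, with 51.4, 35.6 and 12.8 normalized counts untreated and 16.6, 2.81 and 1.63 after FGF8. Of 66 genes of the WNT and BMP/TGF-beta pathways 4 were higher and 29 lower at D0, 3 and 36 at D3, and 0 and 29 at D7. Nkd2 and Inhba were the members among them. Over all genes, 7.61% were higher and 11.4% lower at D0, 4.11% and 12.9% at D3, and 1.09% and 9.75% at D7.

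Pdpn was the 1 member among 42 integrins and adhesion molecules, of which 8 were higher and 9 lower at D0, 2 and 21 at D3, and 2 and 10 at D7. Runx1 was the 1 member among 42 lineage factors of muscle and neurons (3 higher and 12 lower at D0, 0 and 19 at D3, 1 and 9 at D7). Ankrd1 was the 1 member among 32 smooth muscle and contractile genes (2 and 12, 2 and 16, 0 and 8). The all-gene shares, higher and lower, were 7.61% and 11.4% at D0, 4.11% and 12.9% at D3, and 1.09% and 9.75% at D7. The set held none of 41 cytokine and growth factor receptors, 63 axon guidance, 15 prostaglandin or 11 HMGA and oncofetal genes on fixed lists. Bmpr1b and Il18rap are not on the receptor list. As only 0.626% of all genes were in the set, this is near the background.

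The set held 0 of 49 measured interferon-stimulated genes, 0 of 43 S phase and G2/M genes, 0 of 31 adipocyte genes, 0 of 21 brown adipocyte genes and 0 of 21 AP-1 and immediate early genes. With 0.626% of all genes in the set, 0 members in lists of these sizes is near the background and says nothing about the set. Of the interferon-stimulated genes 46 were at least 2-fold lower at D0, where 11.4% of all genes were. Ucp1, the uncoupling protein of brown fat, had 0, 319.5 and 91306 normalized counts untreated and 1328, 4287 and 99587 after FGF8, and so was higher at D0 but not lower later. None of the 83 was among the fixed cell type markers.

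Marker levels also differed between the libraries. The summed stromal markers were lower in the FGF8 library at each day. Untreated against FGF8, they were 331648 and 76105 at D0, 315091 and 109352 at D3, and 315497 and 126379 at D7. That list includes genes of type I collagen. Abundant markers can set such a sum, and values of single stromal markers are not given here. At D3 the adipocyte sum was 243041 untreated and 470913 after FGF8. Endothelial markers summed to 1635 untreated and 75.5 after FGF8 at D0 and to between 37.4 and 221.5 later, with 5 of 7 under a mean of 20. Macrophage markers summed to between 46.1 and 146.9 with 6 of 8 under a mean of 20. The 4 epithelial markers summed to 153.6 in the FGF8 library of D0 and to between 0.70 and 11.8 in the others. Among them Cdh1, Krt8 and Krt18 lay under a mean of 20. The part of these cell types in the result was not tested. In such bulk libraries, fewer cells of a type and less RNA per cell cannot be told apart.

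Reads of overlapping genes were a further limit. The kit was stranded, but the strand setting of the counting is not given in the sources used here, and 46 of the 83 members share exon bases with a gene on the opposite strand and 5 with one on the same strand. Besides Ass1 and Gm5424, Prl2c2, a prolactin family hormone gene, matches Prl2c3 at 99.5% of 842 aligned bases, and the long noncoding Gm6634 matches repeats of other genes. Values of these 4 genes are uncertain.

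Members and other genes lay close to the limits on both sides. Rasgrf1, Klf12 and Rab3b lay just inside, by 0.003, 0.009 and 0.013 on the log2 scale, Rasgrf1 with 3 and 2 counts at D3. Cplx2, Chic1 and Slc45a3 lay just outside, with log2 fold changes of 0.999, 0.998 and 0.993 at D0 and values from -1.60 to -1.13 later.

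Promoters were compared for a feature that the choice of members did not use. RefSeq windows from 250 bases before to 50 bases after the annotated start (GRCm38.p6) were found for 64 of the 83 members, with 94 windows in all. The AP-1 element was searched as TGANTCA, a loose form of the site of Fos and Jun dimers with any middle base. It was found in 11 windows of 11 members (11.7%), against 5.20% of the 13374 windows of genes that passed and 7.81% of all 32851 windows. The ETS element CCGGAAG was found in 3 windows (3.19%), against 17.0% and 8.86%. Windows of 1 gene can overlap, and the shares were not tested.

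The 11 matches follow with 20 bases on each side, 5′ to 3′ on the strand of the gene and with the AP-1 element in capitals, since this was the motif whose share in the members stood above both backgrounds. The number of the first base of the element counts from the annotated start, at -25 for Adh7 (chr3:138217728-138217774) and Rcan2 (chr17:43952954-43953000), -17 for Acsl6 (chr11:54303787-54303833) and -6 for Spint1 (chr2:119237334-119237380), and between -223 and -60 for the other 7.
Spint1: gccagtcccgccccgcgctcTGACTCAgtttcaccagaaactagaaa
Acsl6: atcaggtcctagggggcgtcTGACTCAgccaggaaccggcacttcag
Rcan2: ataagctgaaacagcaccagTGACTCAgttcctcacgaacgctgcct
Rgs17: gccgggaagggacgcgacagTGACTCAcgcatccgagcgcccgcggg
Gfpt2: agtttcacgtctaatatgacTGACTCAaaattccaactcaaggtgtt
Adam19: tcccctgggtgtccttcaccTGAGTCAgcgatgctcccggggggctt
Adh7: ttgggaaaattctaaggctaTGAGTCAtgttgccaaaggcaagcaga
Olr1: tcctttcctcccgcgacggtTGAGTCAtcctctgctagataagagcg
Bdnf: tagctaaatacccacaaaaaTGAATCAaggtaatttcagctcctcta
Gcnt4: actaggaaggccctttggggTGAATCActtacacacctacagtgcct
Gm6634: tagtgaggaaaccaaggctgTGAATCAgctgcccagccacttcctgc

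TGACTCA and TGAGTCA are the same site read on opposite strands, so the element occurred in 2 forms, this one in 8 members and TGAATCA in 3. The background shares hold for TGANTCA and were not taken for the 2 forms apart. The 11 members had log2 fold changes between 1.12 and 2.29 at D0. The 19 members without a window include 7 of the 10 with the largest change at D0, for which no match could be seen. A match is a description of the letters and not a site shown to be bound.

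The shares of the other motifs were as follows. On either strand, the cAMP response element TGACGTCA was found in 2.13% of the member windows (those of Ch25h and Has1) against 2.99% of windows of genes that passed, the TEAD element GGAATG in 13.8% against 12.2%, the interferon-stimulated response element in 3.19% against 3.13% and the CArG box of serum response factor in 1.06% (Filip1) against 1.31%. A loose form of the NF-kB element was found in 58.5% against 67.1%. Over all windows the shares were 1.79%, 14.7%, 3.44%, 1.63% and 50.8%.

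**Figure D5:**
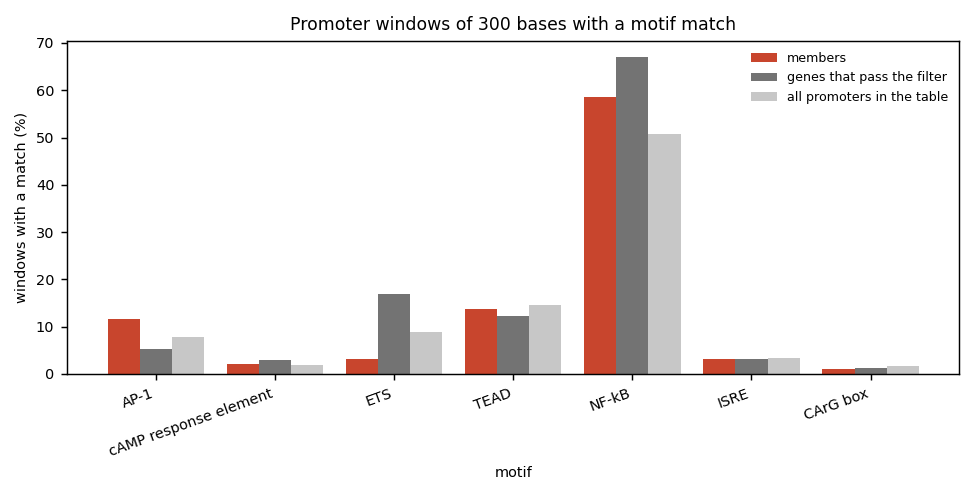
Share of 300-base promoter windows with at least 1 match of each motif (y axis, percent) in members (red, 94 windows), genes that passed the filter (dark gray, 13374) and all promoters of the table (light gray, 32851). The red bar is above both gray bars for AP-1 (11.7%) and below both for ETS (3.19%).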

How the data were processed

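Per the study's methods, the authors prepared stranded mRNA libraries, trimmed the paired-end reads (TrimGalore), mapped them to GRCm39 (HISAT2) and summed reads over genes (featureCounts). They deposited raw counts per library without normalization. Tool versions, annotation, strand setting and the treatment of multi-mapping reads are not given in the sources used here, so near-identical and overlapping genes are uncertain. Every row names a gene. Groups came from the sample labels.

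Library sizes were corrected with median-of-ratios size factors (DESeq2 1.42.0, R 4.3.3; TMM factors from edgeR 4.0.16), and the set was taken as described above. No model was fitted, because each condition is 1 library. Intervals of a ratio of 2 counts are 95% exact binomial (scipy 1.17.1) and, like the floor of 3 counts, cover counting error only. They are narrow for abundant genes and wide for rare ones. The steps were tested on simulated data. Gene positions and exon lengths came from GENCODE M39 (GRCm39), near-identical copies from BLAST+ searches (at least 95% identity over 300 bases), and promoters from RefSeq (GRCm38.p6), with Python 3.11.15.

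The members, gene lists, markers and motifs were chosen with earlier results of these data known, and roles were assigned after the members were seen. Genes named were the 10 members with the largest change at D0, the 10 with the lowest mean log2 fold change over D3 and D7, the 10 with the most counts, those in a list, the 3 nearest genes on each side of the limits, and other members whose role was sure. Ucp1, Areg and Il6 were named for contrast. The values of 1 member among these are not reported here. Alternatives were other scalings (TMM, total counts, size factors from a day's pair only), a pseudocount of 0.5 or 5, another filter on the mean (100 or none), a rule of 1.5-fold or 4-fold, and a demand that the counting interval exclude equality.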

Additional observations from a re-analysis of the deposited data

Results flagged for a closer look

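Effects of FGF8 in opposite directions on different days drew attention in both senses. At D0 83 genes were at least 2-fold higher and at D3 and D7 at least 2-fold lower, and 9 genes had the opposite course (Elf3, Gm34084, Mb, Tbx1, Scd3, Timp4, Rassf4, Eps8l2 and Lctl). The difference between days was not tested, because each condition is 1 library. With 1 library per group, no library could be checked against others of its group.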

How the results depend on the processing

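The count of genes in the set was 83 with TMM factors (82 of them shared with the 83), 94 with total counts (83 shared) and 85 with size factors within a day (78 shared). It was 87 with a pseudocount of 0.5 and 61 when the counting interval also had to exclude equality on all 3 days. It moved further with a pseudocount of 5 (54 genes), a mean of at least 100 (48), no filter (146), a 1.5-fold rule (217) and a 4-fold rule (5), as looser and stricter rules do by construction. Across the 3 other normalizations 78 of the 83 remained, and 52 across these and both pseudocounts. Etv4, Adcy8, F2rl1, Cxcl14 and Acpp were among those lost. The median log2 fold change of the 83 was 1.47 at D0, -1.41 at D3 and -1.42 at D7 with a pseudocount of 5, -1.74 at D3 with total counts, and -1.91 and -1.93 at D7 with size factors within a day and a pseudocount of 0.5. Total counts also moved the median of all genes at D3 from 0.073 to -0.034. All-gene counts moved by over 1.5 times at D3 with total counts (357 higher in place of 545) and at D7 with a mean of at least 100 (65 in place of 145). Of 540 values of 36 named members under 5 alternatives, 533 stayed within their counting interval, 7 moved and 0 reversed. These intervals are wide at few counts, so the 533 are no measure of stability. Adcy8 at D0 went from 7.13 to 4.85 with a pseudocount of 5 and still counted as unmoved. Depth limits the members with few counts, and replicates are lacking for all.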
